A study of Mus musculus with 12 samples.

Results

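The 9 genes described here encode 6 membrane serine proteases (Prss8, St14, Tmprss2, Tmprss4, Tmprss13 and Hpn), their Kunitz-type inhibitors Spint1 and Spint2, and Scnn1a, a sodium channel subunit that such proteases act on. They were taken by symbol, with every probe set annotated to that gene alone, which gave 13 of 45037 probe sets and 9 of 18193 genes on the array. RNA came from 4 mouse lung adenocarcinoma cell lines with 3 arrays each, 12 arrays in all. KC1, KC2 and KC3 are labelled highly metastatic, and KC4 is labelled poorly metastatic. All 4 lines carry K-rasLA1/+; Cdkn1a-/-, an oncogenic K-ras allele together with loss of the cell-cycle inhibitor p21, on a background given as 127s, and all were grown in RPMI 1640 with 10% FBS. The lines trace back to 6 lung tumours of 4 mice, with no statement of which line came from which mouse. KC4 is the sole line of its class, so metastatic class and cell line cannot be told apart in any difference from KC4. The arrays of a line are labelled biological replicates. The p-values of the main fit measure the spread between these samples of a line and not that between lines of a class.

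Membrane serine proteases cut proteins at the cell surface and are made as inactive precursors. Matriptase (St14) and prostasin (Prss8) form an activating pair in epithelia, where they cut growth factor precursors, receptors and the epithelial sodium channel. The transmembrane inhibitors made by Spint1 and Spint2 bind these enzymes and hold them in check, and in airway epithelium the balance of protease and inhibitor tunes sodium uptake by the channel.

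The promoters of both inhibitors and of Tmprss2 are shown because Spint1 and Tmprss2 varied together over the 12 arrays while Spint2 barely varied. Each is a RefSeq window on GRCm38.p6 of 250 bases before to 50 after the transcription start, read 5′ to 3′ on the gene's strand. The windows are chr2:119237110-119237409 on the plus strand for Spint1, chr7:29281928-29282227 on the minus strand for Spint2 and chr16:97611146-97611445 on the minus strand for Tmprss2. Capitals mark CACCTG or its complement CAGGTG, the E-box read by Zeb and Snail factors, and ACCGGT, the core bound by grainyhead factors.
Spint1: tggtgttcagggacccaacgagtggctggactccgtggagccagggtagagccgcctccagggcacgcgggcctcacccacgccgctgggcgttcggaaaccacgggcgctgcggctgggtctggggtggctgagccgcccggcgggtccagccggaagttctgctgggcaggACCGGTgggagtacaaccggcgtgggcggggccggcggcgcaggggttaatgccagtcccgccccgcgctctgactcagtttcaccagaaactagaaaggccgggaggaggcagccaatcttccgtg
Spint2: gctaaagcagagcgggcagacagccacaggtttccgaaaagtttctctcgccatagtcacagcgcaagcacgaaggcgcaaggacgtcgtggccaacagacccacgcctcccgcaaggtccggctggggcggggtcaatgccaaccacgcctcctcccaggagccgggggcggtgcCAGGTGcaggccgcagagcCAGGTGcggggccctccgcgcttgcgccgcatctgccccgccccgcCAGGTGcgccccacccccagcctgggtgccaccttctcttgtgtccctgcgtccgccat
Tmprss2: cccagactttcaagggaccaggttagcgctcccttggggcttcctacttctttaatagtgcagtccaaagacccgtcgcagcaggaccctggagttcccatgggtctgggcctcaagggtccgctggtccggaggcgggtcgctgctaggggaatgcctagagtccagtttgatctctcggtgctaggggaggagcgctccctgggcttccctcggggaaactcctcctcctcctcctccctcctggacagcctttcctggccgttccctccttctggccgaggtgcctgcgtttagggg
The Spint1 window held 1 grainyhead core, its first base at -77 from the start, and no E-box. The Spint2 window held 3 E-boxes, at -74, -55 and -9, and no grainyhead core. Both inhibitor windows also held 3 GC boxes (GGGCGG on either strand), none overlapping a capitalised match, and no TATAAA. The Tmprss2 window held none of these 4 motifs. Of 32851 promoter windows of this length, 20.2% held the E-box, 2.33% the grainyhead core, 35.7% the GC box and 13.6% TATAAA on either strand. The G and C content was 69.7% for Spint1, 69.3% for Spint2 and 62.3% for Tmprss2, against a median of 52.7% over all windows. A window was at hand for 4 of the 9 genes, the remaining one being Hpn with 2 windows whose sequences are not shown. The Hpn window at chr7:31115277-31115576 held 3 E-boxes, at -126, -43 and 38, and 3 GC boxes. The other Hpn window held none of these motifs. Hpn varied widely, with line means spanning 3.21, so E-boxes were not particular to the steady gene. Any part of these motifs in the levels was not tested.

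Signals are the deposited linear intensities. For tests, values under 16 were raised to 16 and log2 was taken, so 4.00 is the lowest log2 signal. A step of 1 on this scale is a 2-fold change. A probe set was called different when its Benjamini-Hochberg adjusted p from limma, fitted and adjusted over all 45037 probe sets, was under 0.05 and its log2 difference was at least 1 in size. The class difference is the average over the 3 highly metastatic lines minus KC4. Each array had a median signal between 94.5 and 128, and 15.3% to 20.0% of its probe sets lay at or under the floor. The lines carried the epithelial markers that fit their label: 7 of 7 epithelial markers had a mean signal above 100 in every line. Their summed signal spanned 92671 to 97924 in KC1, 83945 to 103825 in KC2, 87725 to 90973 in KC3 and 71352 to 84523 in KC4. Of 8 lung lineage markers, 3 had a mean signal above 100 in KC1 and KC2 and 2 in KC3, against 3 in KC4. The summed signal of the 8 was 938 to 1045 in KC1, 1583 to 1897 in KC2 and 457 to 788 in KC3, against 656 to 952 in KC4. Among them, the surfactant gene Sftpb averaged 7.81, 7.86 and 7.58 in KC1, KC2 and KC3, against 8.15 in KC4 on the log2 scale. Sftpd was called higher than KC4 in KC1 and KC2, with 8.86, 10.32 and 6.75 in KC1, KC2 and KC3, against 7.27 in KC4. Napsa was at the floor on every array, and Nkx2-1, the lung lineage regulator, averaged 4.18, 4.42 and 4.82 in KC1, KC2 and KC3, against 5.41 in KC4. Neither Sftpb nor Nkx2-1 was called by class, and the median class difference of the 8 was -0.02. Nkx2-1 missed only the size threshold, with a class difference of -0.94 (adjusted p = 0.0299, limma), and was called lower in KC1 than in KC4. Sftpb had a class difference of -0.40 (adjusted p = 0.564) and was called in no line against KC4.

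An array control for 18S ribosomal RNA, at its 5′ end, moved with KC4. Its signal averaged 605 ± 72.0 for KC1, 451 ± 86.8 for KC2 and 414 ± 39.0 for KC3, against 3305 ± 935 in KC4 (SD, n = 3 each). The 5′ control for beta-actin averaged 17095, 16696 and 16264 in KC1, KC2 and KC3, against 16134 in KC4. The part of the ribosomal signal in the differences from KC4 was not tested.

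By class, each member that was called was higher in the highly metastatic lines. Of the 13 probe sets, 5 were called higher in KC1 to KC3 than in KC4, where 2.49% of all probe sets were, and 0 were called lower, where 2.1% were, with no member below 0 in its fitted class difference (limma). By gene, on the brightest probe set of each, 4 of 9 were called higher (Prss8, Tmprss4, Tmprss13 and Scnn1a) and 0 lower, beside 2.85% and 2.51% of all genes. The median class difference of the 9 genes was 0.99, against -0.00088 for all genes. The 9 genes were chosen with earlier results of these data known. Their counts and median beside those of all genes are therefore descriptions and not a test. Without line KC2 the count of called probe sets was 2 of 13, and without the first KC4 array it was 3. With the line as a random block it was 1, Prss8. That fit took 1 correlation, 0.403, for all probe sets. With KC4 alone in its class, it cannot measure the spread between poorly metastatic lines. Members were also called between the highly metastatic lines, as the genes show one by one.

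**Figure D1:**
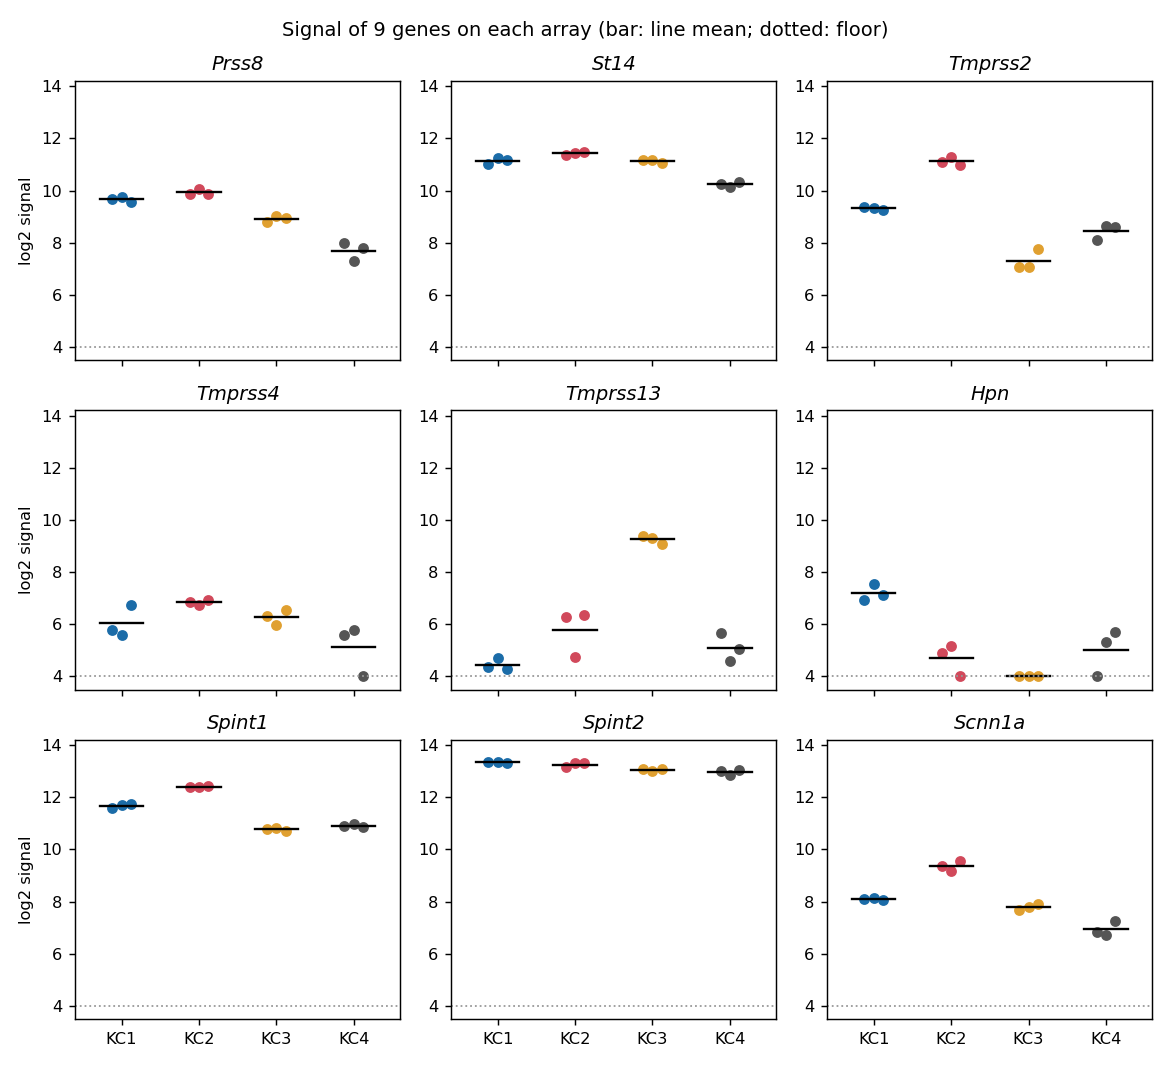
Log2 signal of the brightest probe set of each of the 9 genes on each array, with lines along the horizontal axis, points for arrays, bars for line means and a dotted line at the floor of 4. Prss8, St14 and Scnn1a lie above every KC4 array on all highly metastatic arrays, while Tmprss13 stands out in KC3 and Hpn in KC1.

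Prss8, the gene of prostasin, a protease tied to the outer membrane by a lipid anchor, was lower in KC4 than in each of the other 3 lines by more than the size threshold. Its signal was 818, 857 and 761 for KC1, 927, 1080 and 943 for KC2 and 447, 517 and 490 for KC3, against 253, 159 and 220 in KC4. No KC4 array reached the lowest array of any other line. The class difference was 1.81 (SE 0.125, adjusted p = 1.08e-05, limma), a 3.52-fold higher signal in the highly metastatic lines. Each line alone was called higher than KC4, by 1.97 for KC1, 2.25 for KC2 and 1.23 for KC3, with adjusted p of 3.45e-05, 7.55e-06 and 0.000383. Among the highly metastatic lines, KC2 exceeded KC3 by 1.02 (adjusted p = 0.000856), whereas KC1 minus KC2 was -0.27 and missed the threshold (adjusted p = 0.307). Only for Prss8, among the 13 probe sets, was KC4 called in the same direction against each other line, which held for 1.29% of all probe sets. Leaving out any 1 highly metastatic line left a class difference of 1.60 to 2.11.

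St14, the gene of matriptase, the transmembrane protease that activates prostasin, was bright in all lines and lowest in KC4. Its signal was 2100, 2407 and 2286 for KC1, 2659, 2776 and 2893 for KC2 and 2325, 2287 and 2127 for KC3, against 1233, 1125 and 1299 in KC4. All 9 highly metastatic arrays were above all KC4 arrays. The class difference was 0.99 (SE 0.056, adjusted p = 3.47e-06, limma), which is a 1.98-fold higher signal and falls just short of the size threshold. KC2 alone was called higher than KC4, by 1.19 (adjusted p = 2.74e-06), with 0.89 in KC1 and 0.88 in KC3. KC1 and KC3 were not separable, with a difference of 0.01 and a 95% interval from -0.15 to 0.17. Under 6 of the alternative settings the class difference of St14 passed 1, with values up to 1.04.

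Tmprss2, a transmembrane protease known in airway cells for cutting viral surface proteins, was highest in KC2 and lowest in KC3. On its brightest probe set the signal was 658, 645 and 619 for KC1, 2162, 2483 and 2033 for KC2 and 136, 134 and 216 for KC3, against 276, 397 and 385 in KC4. The poorly metastatic line thus lay between KC1 and KC3, and no pair of lines overlapped. KC2 exceeded KC4 by 2.67 (SE 0.201, adjusted p = 1.39e-05, limma), a 6.37-fold difference. KC3 was lower than KC4, with a difference of -1.14 (adjusted p = 0.0028), which was -0.97 and not called with median centring, and KC1 minus KC4 was 0.88 (adjusted p = 0.015) and not called. KC2 over KC3 was the widest gap, 3.81 or 14.1-fold (adjusted p = 1.37e-06). The class mean therefore joins lines that moved in opposite directions: it was 0.80 with all lines, -0.13 without KC2 and 1.78 without KC3.

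The other Tmprss2 probe sets showed the same order where they had signal. Probe set 1458347_s_at read 668, 565 and 674 for KC1, 2378, 1959 and 2310 for KC2 and 138, 108 and 150 for KC3, against 243, 276 and 297 in KC4. Probe set 1449369_at read 231, 218 and 162 for KC1, 580, 618 and 596 for KC2 and 59.4, 102 and 84.4 for KC3, against 164, 131 and 129 in KC4, with the KC1 and KC4 arrays overlapping. The first of these was called higher by class, with 1.07 (SE 0.113, adjusted p = 0.000147, limma), and the other was not, with 0.60 (adjusted p = 0.0304). Their values for KC2 over KC4 were 3.03 and 2.09, and those for KC3 minus KC4 were -1.05 and -0.81. The call by class on 1458347_s_at was lost without KC2, at 0.09, without KC1, at 0.99, and without the first KC4 array, also at 0.99. A probe set with the ending s_at can also pick up related transcripts. The last probe set, 1459510_at, was under the floor on all 12 arrays and carries no information on Tmprss2 here.

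**Figure D2:**
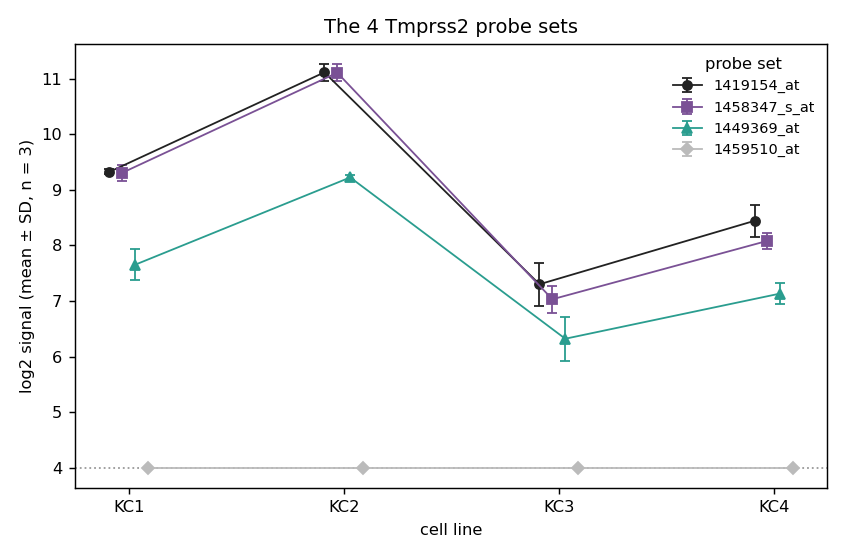
Mean log2 signal of the 4 Tmprss2 probe sets in each line (error bars are the SD over 3 arrays). The 3 measurable probe sets run highest in KC2 and lowest in KC3, with KC4 below KC1, and the last sits on the floor of 4.

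Tmprss4, a related protease that can also activate the sodium channel, was dim and its class difference uncertain. Its signal was 55.3, 48.8 and 106 for KC1, 114, 108 and 122 for KC2 and 79.0, 62.8 and 93.6 for KC3, against 48.5, 55.2 and 8.92 in KC4. The KC1 arrays overlapped those of KC4, and 1 KC4 array was under the floor. The class difference was 1.26 (SE 0.381, adjusted p = 0.043, limma), and without the third KC4 array it was 0.69 (adjusted p = 0.135). Leaving out any of 10 of the 12 arrays ended the call. Against KC4, only KC2 was called among the single lines, with 1.71 (adjusted p = 0.024), a call lost without any 1 of the KC2 arrays (adjusted p 0.0556 to 0.0693) and at a floor of 64, where it was 0.84. No neighbours in the order of lines, KC2, KC3, KC1 and KC4, differed by a call.

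Tmprss13, a mosaic transmembrane protease of surface epithelia, was a KC3 gene. Its signal was 20.7, 26.2 and 19.6 for KC1, 78.3, 26.5 and 81.3 for KC2 and 664, 634 and 540 for KC3, against 50.9, 24.2 and 33.6 in KC4. Every KC3 array was far above every other array, and the KC1 and KC2 arrays each overlapped those of KC4. KC3 exceeded KC4 by 4.14 (95% interval 3.16 to 5.12, adjusted p = 0.000125, limma), a 17.7-fold difference. The gap to KC1 was also wide: KC1 minus KC3 was -4.80 (adjusted p = 4.94e-05), and KC2 minus KC3 was -3.47 (adjusted p = 0.000261). The class difference of 1.39 (adjusted p = 0.0193) rests on KC3, since it was 0.01 without that line. That call was also lost without the second KC4 array (1.13, adjusted p = 0.0986) or the third (1.37, adjusted p = 0.071). Neither KC1 nor KC2 was called against KC4, at -0.65 and 0.68. With 1 array left out, KC2 minus KC4 ran from 0.40 to 1.21, with a lowest adjusted p of 0.0158 (limma). The KC2 arrays at 78.3 and 81.3 were above every KC4 array.

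Hpn, the gene of hepsin, a transmembrane protease abundant in liver, was measurable chiefly in KC1. Its signal was 123, 187 and 141 for KC1, 30.1, 36.1 and 8.25 for KC2 and 10.6, 13.0 and 7.58 for KC3, against 13.0, 40.4 and 51.6 in KC4. All KC3 arrays, 1 KC2 array and 1 KC4 array were under the floor, and the lowest KC1 array was above every other array. KC1 exceeded KC4 by 2.20 (95% interval 1.20 to 3.20, adjusted p = 0.00783, limma) and exceeded KC2 by 2.51 (adjusted p = 0.00396). With the floor standing for KC3, the fitted KC1 minus KC3 difference was 3.21 (95% interval 2.21 to 4.21, adjusted p = 0.000648). By class the difference was 0.29 (adjusted p = 0.674), and its sign turned to -0.66 without KC1 and to -0.21 without the first KC4 array.

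The inhibitors differed in how they varied. Spint1, the gene of hepatocyte growth factor activator inhibitor, had the same highest and lowest lines as Tmprss2. Its signal was 3100, 3340 and 3386 for KC1, 5339, 5346 and 5527 for KC2 and 1751, 1816 and 1682 for KC3, against 1925, 2001 and 1845 in KC4. KC3 lay just under KC4 with no overlap, while KC1 and KC2 lay well above it. KC2 exceeded KC4 by 1.49 (SE 0.046, adjusted p = 7.66e-08, limma) and exceeded KC3 by 1.63 (adjusted p = 4.29e-08). KC1 minus KC4 was 0.77 (adjusted p = 6.98e-06), under the size threshold, and KC3 minus KC4 was -0.14 (adjusted p = 0.0614). The class difference was 0.71 (adjusted p = 2.24e-06) and was not called, and it was 0.32 without KC2 and 1.13, past the threshold, without KC3.

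Spint2, the related inhibitor with a broad range of target proteases, was the steadiest member. Its brightest probe set read 10398, 10401 and 10122 for KC1, 9066, 10074 and 10054 for KC2 and 8643, 8244 and 8742 for KC3, against 8223, 7386 and 8506 in KC4. KC1 and KC2 lay above KC4 on every array, and KC3 overlapped it. The class difference was 0.24 (95% interval 0.13 to 0.35, adjusted p = 0.00592, limma), a 1.18-fold higher signal. The second probe set of Spint2, 1451935_a_at, gave 0.30 (adjusted p = 0.0209). On the brightest probe set the line means spanned 0.36 in all, and 22.5% of genes had a span under that. That share covers genes of every brightness, with those at the floor and dim genes of wider spread, and not only genes as bright as Spint2. Probe set 1438968_x_at, the brightest, has an ending that marks possible cross-hybridisation.

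Scnn1a, the alpha subunit that the epithelial sodium channel requires and that surface proteases cut, was lowest in KC4 and highest in KC2. Its signal was 272, 281 and 266 for KC1, 652, 572 and 751 for KC2 and 204, 220 and 242 for KC3, against 115, 105 and 154 in KC4. No KC4 array overlapped any other line. The class difference was 1.47 (SE 0.119, adjusted p = 2.88e-05, limma), a 2.76-fold higher signal, and it was 1.00 without KC2, just under the threshold before rounding. KC2 exceeded KC4 by 2.41 (adjusted p = 3.59e-06) and KC1 exceeded it by 1.15 (adjusted p = 0.000616), while KC3 minus KC4 was 0.84 (adjusted p = 0.00251) and not called. KC1 minus KC3 was 0.30 (95% interval -0.028 to 0.64, adjusted p = 0.189) and not called, though every KC1 array was above every KC3 array.

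**Figure D3:**
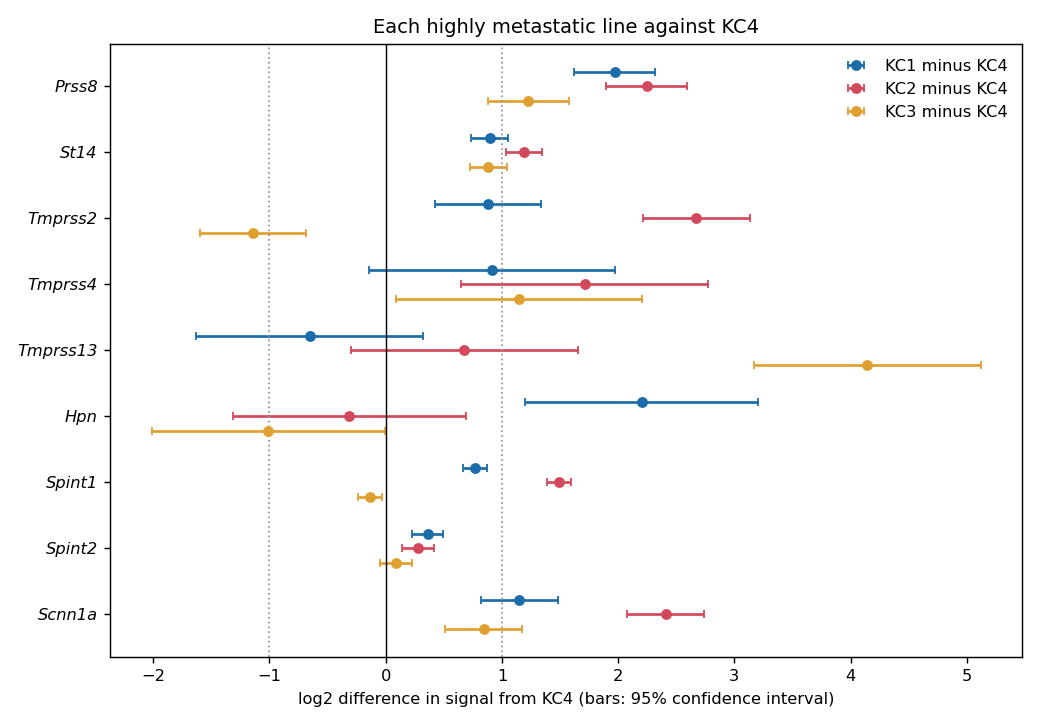
Log2 difference from KC4 of KC1, KC2 and KC3 for the brightest probe set of each gene, with 95% confidence intervals and dotted lines at -1 and 1. Prss8, St14 and Scnn1a lie right of 0 in all 3 lines, Tmprss2 lies on both sides of 0, and Tmprss13 in KC3 is the farthest point, at 4.14.

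Line by line, KC2 had the most members called against KC4. The members called against KC4 numbered 4 of 13 probe sets in KC1, all higher, where 4.75% of probe sets were called. They numbered 8 in KC2, all higher, where 7.99% were called, and 4 in KC3, 2 higher and 2 lower, where 6.7% were called. The split in KC3 depended on the scaling: it was 5 higher and 0 lower with median centring, which moved the median of all probe sets by 0.18, and 2 higher and 1 lower with quantile normalization. These 3 comparisons share the KC4 arrays. Between the highly metastatic lines, 5 probe sets were called in KC1 against KC2 (4.04% of all), 5 in KC1 against KC3 (7% of all) and 7 in KC2 against KC3 (9.42% of all). Of the 7 in the last pair, 6 were higher in KC2, and the exception was Tmprss13.

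The lines could also be told by single members. A probe set called in the same direction against each of the other 3 lines was Hpn in KC1 (0.706% of all probe sets met this rule for KC1). In KC2 there were 4, the 3 measurable Tmprss2 probe sets and Scnn1a, all higher (1.5% of all). In KC3 there were 3, Tmprss13 higher and 2 Tmprss2 probe sets lower (1.9% of all). With median centring, KC3 had 0 members called lower than KC4, so these 2 Tmprss2 probe sets did not meet the rule. The highest mean was in KC2 for 6 of 9 genes, beside 31.0% of 16685 genes, and the lowest in KC4 for 5 of 9, beside 23.4%. The span of the 4 line means was 4.80 for Tmprss13, 3.81 for Tmprss2, 3.21 for Hpn, 2.41 for Scnn1a and 2.25 for Prss8. Of these spans, the narrowest was still at the 95.6th percentile of all genes.

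Because inhibitor and protease are read on the same array, the protease signal was also taken relative to Spint1, with the KC4 mean set to 0. St14 relative to Spint1 was 0.13 ± 0.053 for KC1, -0.30 ± 0.039 for KC2 and 1.02 ± 0.042 for KC3, against a spread of 0.163 in KC4 (log2, SD, n = 3 each). KC3 thus had St14 at the level of KC1 with less Spint1, and KC2 had more of both. Prss8 relative to Spint1 was 1.20 ± 0.12 for KC1, 0.75 ± 0.13 for KC2 and 1.36 ± 0.10 for KC3, above KC4 in all 3 lines. The KC4 arrays were the most spread for this ratio, with an SD of 0.386. Tmprss2 relative to Spint1 was 0.11 ± 0.11 for KC1, 1.18 ± 0.17 for KC2 and -1.01 ± 0.44 for KC3, against a spread of 0.295 in KC4. There were 18 such comparisons with KC4, counting Spint2 as the partner too. A two-sided exact permutation test of 3 arrays against 3 can give no p below 0.1, so it cannot pass 0.05. That smallest exact p was reached in 16 of the 18, some higher and some lower than KC4, and was 0.1125 after adjustment. The exceptions were St14 (exact p = 0.3) and Tmprss2 (exact p = 0.8) relative to Spint1 in KC1. An exact p of 0.1 means only that the 3 arrays of a line and those of KC4 did not overlap. No share over other pairs of probe sets was taken, so the count has no background beside it. The comparisons share the KC4 arrays and the same few probe sets and are not separate results. The ratio shows unequal differences between probe sets and not the number of molecules of each.

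**Figure D4:**
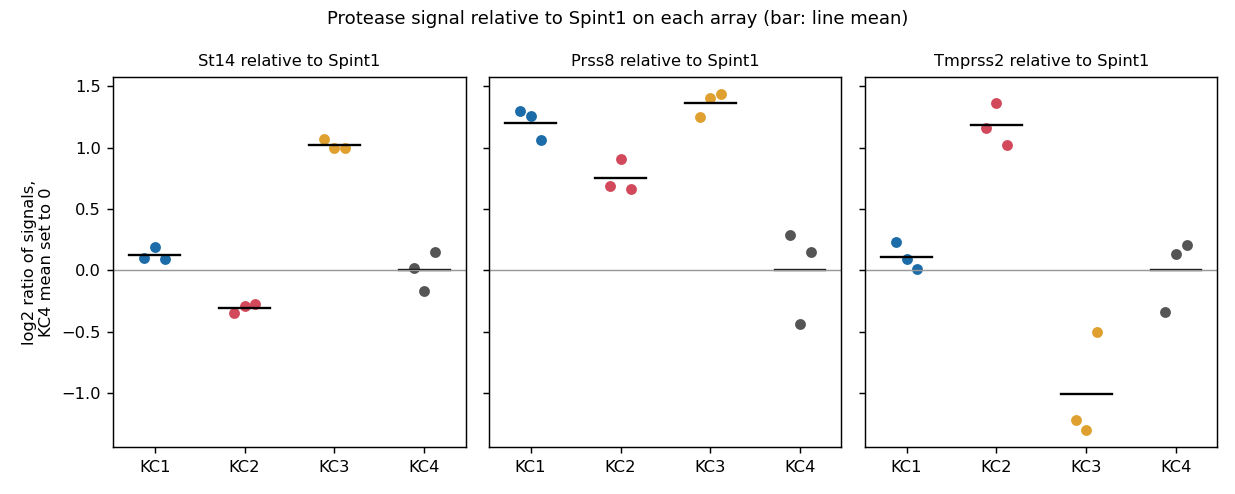
Log2 ratio of St14, Prss8 and Tmprss2 signal to Spint1 signal on each array, with the KC4 mean set to 0 and bars for line means. St14 relative to Spint1 stands out in KC3, at 1.02, and Tmprss2 relative to Spint1 is highest in KC2 and lowest in KC3.

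Over the 12 arrays, which fall into 4 lines, Tmprss2 and Spint1 had a Pearson r of 0.955 and Prss8 and St14 one of 0.940, while Tmprss13 and Hpn had -0.737. These are descriptions, since arrays of a line share its cells. For the 5 members whose line means spanned at least 2, the most alike among 1024 genes of such span were named by the same measure. They were Fhit (r = 0.983) and Mcpt8 (r = 0.983) for Prss8, and Tlr3 (r = 0.984) and Cracr2b (r = 0.983) for Tmprss2. For Tmprss13 they were St6galnac4 (r = 0.953) and Zfas1 (r = 0.947), for Hpn they were Smim10l2a (r = 0.985) and Fzd7 (r = 0.951), and for Scnn1a they were Ift122 (r = 0.975) and H2bc21 (r = 0.972). Fhit was at the floor on all KC4 arrays and averaged 9.05, 9.83 and 6.88 in KC1, KC2 and KC3 (log2).

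Calls were also counted for the genes beside the members on their chromosomes, ordered as in RefSeq for GRCm38.p6. Of 17 measured neighbours, 1 was called higher by class and 0 lower, beside 2.85% and 2.51% of all genes. That was Ripk4, a kinase gene next to Tmprss2, with log2 signals of 11.31, 11.98 and 11.72 in KC1, KC2 and KC3, against 10.60 in KC4 (difference 1.07, adjusted p = 5.85e-06, limma). No neighbour was called for 1 line against each of the other 3, a rule that 0.706% to 1.9% of probe sets met by line. Those shares are over probe sets, while neighbours were taken by gene. For 17 genes, counts of 0 or 1 lie near the shares of the whole array and are not a result about the neighbours. Tmprss4 and Tmprss13 have 2 genes between them, and their highest lines differed, KC2 for Tmprss4 and KC3 for Tmprss13.

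Among 15 measured other serine proteases of the same families, 2 were called higher by class, 0 lower, and the median difference was 0.06. Of all genes, 2.85% were called higher by class and 2.51% lower. At an unadjusted p under 0.05 in limma, whatever the size, 3 of the 15 were higher and 0 lower. No share of all genes was taken at this looser cut. The unadjusted counts, here and for the lists below, therefore have no background beside them. Tmprss11e, a transmembrane protease of the airway-type branch, averaged 12.57 ± 0.03, 11.38 ± 0.05 and 12.28 ± 0.03 in KC1, KC2 and KC3, against 9.74 ± 0.08 in KC4 (log2, SD, n = 3 each). Its difference of 2.34 (SE 0.036, adjusted p = 2.23e-09, limma) was wider than that of any of the 9 genes. Prss22, a tryptase-like protease of airways, averaged 12.82, 12.61 and 12.01 in KC1, KC2 and KC3, against 10.66 in KC4, a difference of 1.82 (adjusted p = 2.83e-07). Among 14 measured other inhibitors, 1 was called higher and 1 lower, beside 2.85% and 2.51% of all genes, with a median of -0.25. At an unadjusted p under 0.05 in limma, 2 were higher and 5 lower. Tfpi, the tissue factor pathway inhibitor, was higher by 1.09 (adjusted p = 0.0013), and its call was lost without KC1 (0.68), without the third KC4 array (0.95), at a floor of 64 (0.32), with log2(signal + 16) (0.83) and with the line as a random block (adjusted p = 0.343). Serpinb1a, an inhibitor of neutrophil proteases, was under the floor on all 9 highly metastatic arrays and 1 KC4 array, and its fitted difference of -1.35 (adjusted p = 0.0323) lost its call in most alternatives.

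Among 14 measured substrates and receptors of these proteases, 2 were called higher and 0 lower, beside 2.85% and 2.51% of all genes. Their median was 0.49. At an unadjusted p under 0.05 in limma, 8 were higher and 2 lower. Plau, the gene of urokinase, whose precursor matriptase can activate, averaged 10.97, 11.30 and 10.50 in KC1, KC2 and KC3, against 8.98 in KC4, a difference of 1.94 (adjusted p = 2.77e-07, limma). Egfr, a growth factor receptor, differed by 1.01 (adjusted p = 3.19e-05), and this call was lost in several settings at values just under 1. Epcam and Cldn7, surface proteins that matriptase cuts, differed by 0.89 and 0.98 and were not called. They were chosen for mention after their values were seen.

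Among 12 measured partners of the sodium channel, 2 were called higher and 0 lower, beside 2.85% and 2.51% of all genes. Their median was 0.16. At an unadjusted p under 0.05 in limma, 4 were higher and 2 lower. Nr3c2, the mineralocorticoid receptor, differed by 1.92 (adjusted p = 0.00211, limma). Its KC4 mean of 5.04 ± 0.97 included 1 array at the floor, the difference was 1.01 at a floor of 64, and the call was lost with the line as a random block (adjusted p = 0.253). Nedd4l, a ubiquitin ligase that removes the channel from the surface, differed by 1.15 (adjusted p = 6.4e-06), with the call lost at 0.96 without KC2 and with the line as a random block (adjusted p = 0.0836). The remaining channel subunits, named here after their values were seen, were dim. Scnn1g was at the floor on all arrays, and Scnn1b averaged 5.98, 5.96 and 6.11 in KC1, KC2 and KC3, against 6.28 in KC4.

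Among 20 measured regulators of epithelial genes, 2 were called higher and 5 lower, beside 2.85% and 2.51% of all genes. Their median was -0.10. At an unadjusted p under 0.05 in limma, 5 were higher and 8 lower. The higher ones were Ovol1 by 1.24 and Elf3 by 1.00, both epithelial transcription factors. The lower ones were Klf4 (log2 signals of 11.26, 11.63 and 11.13 in the highly metastatic lines, against 12.84 in KC4), Foxa2 (-1.32), Grhl3 (-1.14), Ehf (-1.05) and Zeb2 (-1.05), of which Zeb2 represses epithelial genes and the remainder are known from epithelia. Elf3, Ehf and Zeb2 are named because the counts are small, after their values were seen. Ehf was called against KC4 only in KC3, with means of 9.41, 8.99 and 6.57 in KC1, KC2 and KC3, against 9.37 in KC4. The call of Foxa2 was lost without KC2, at -0.80, that of Ovol1 without KC3, at 0.95, and that of Grhl3 in most alternatives. All 3 calls were also lost with the line as a random block (adjusted p = 0.554, 0.0973 and 0.487).

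**Figure D5:**
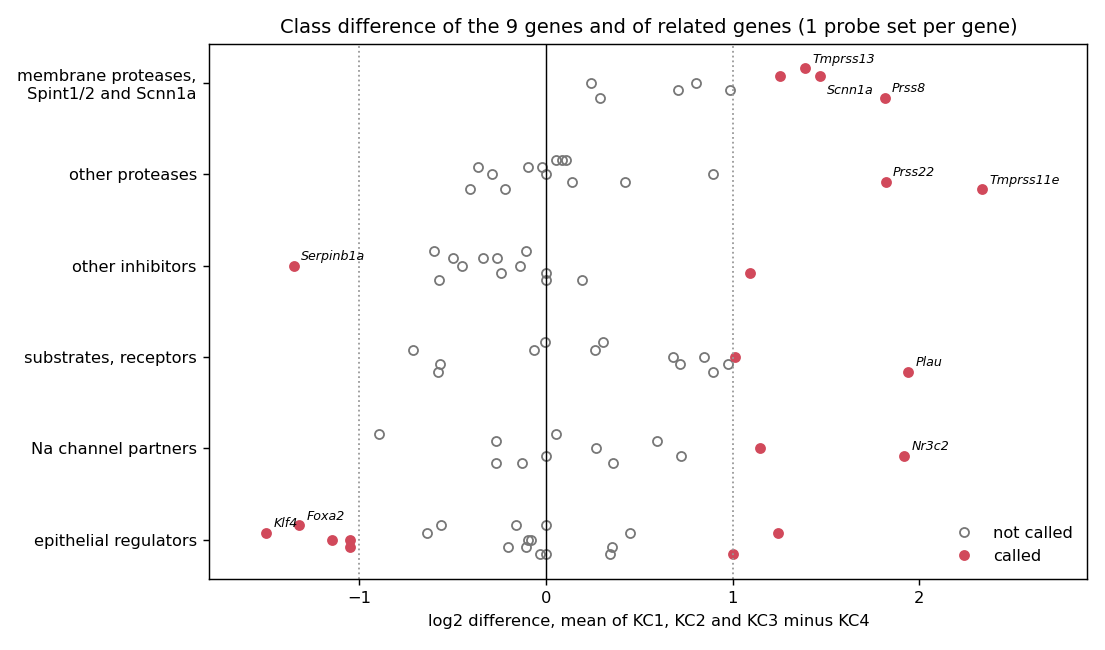
Class difference (log2, average over the 3 highly metastatic lines minus KC4) of the 9 genes and of 5 lists of related genes, 1 probe set per gene, with filled points for called genes. Tmprss11e, at 2.34, is the farthest right, and the called regulators lie on both sides of 0.

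Markers of other cell types were not called by class. Of 8 fibroblast, 6 endothelial and 7 leukocyte markers, 0 passed the test, beside 2.85% of all genes called higher and 2.51% called lower. In every line, 3 of the leukocyte markers had a mean signal above 100. At an unadjusted p under 0.05 in limma, whatever the size, 1 leukocyte marker was higher and 1 endothelial marker lower by class, and 0 fibroblast markers differed. The summed fibroblast signal was 490 to 510 for KC1, 556 to 627 for KC2 and 435 to 670 for KC3, against 435 to 715 in KC4, and Pdgfrb was at the floor throughout. The endothelial sum was 321 to 530 for KC1, 392 to 456 for KC2 and 336 to 364 for KC3, against 364 to 469 in KC4, with Tie1 and Vwf at the floor throughout. The leukocyte sum was 561 to 748 for KC1, 871 to 953 for KC2 and 690 to 828 for KC3, against 580 to 677 in KC4, so it was highest in the line where most members were highest. Its part in the KC2 levels was not tested. Of 7 epithelial markers, 1 was called, Cldn4, higher by 1.54 (adjusted p = 4.23e-08, limma). Of 8 lung lineage markers, 1 was called, Sftpd, higher by 1.37 (adjusted p = 0.00194, limma). Sftpd was higher by 0.54 without KC2, and its call was also lost with the line as a random block (adjusted p = 0.777). Unadjusted p in limma was under 0.05 for 3 epithelial markers higher and 1 lower, and for 1 lung lineage marker higher and 2 lower.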

How the data were processed

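The deposited values are linear intensities, 45101 probe sets on each array. The authors used software not given in the sources used here to make them. After 64 control probe sets were left out, 45037 were tested. Gene symbols came from the platform annotation, and only probe sets with 1 symbol were named. Signals under 16 were set to 16 and log2 was taken. Differences came from lmFit and eBayes of limma 3.58.1, run under R 4.3.3 with a coefficient for each line over 12 arrays, with Benjamini-Hochberg adjustment over all probe sets. A call needed an adjusted p under 0.05 and a log2 difference of at least 1. The code was tested on simulated data. Lists used the brightest probe set of a gene.

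The members and lists were chosen with earlier results of these data known. The rule for names took all 9 members, up to 4 called genes of each list by size of the class difference, and for each member spanning at least 2 the 2 genes most alike. The arrays limit precision by their number, 3 per line, and by brightness: the median SD within a line was 0.41 for probe sets with a mean log2 signal under 6 and 0.11 between 9 and 12. Replicate numbers did not pair the arrays: of 18 correlations between same-numbered arrays of different lines, 0 passed 0.1. Of 36 between differently numbered arrays, 4 did, the highest at 0.129, so some structure shared across lines under other numbers remains possible and was not tested. Figures were drawn with matplotlib 3.10.9 and exact tests run with scipy 1.17.1. Alternatives changed the floor, scaling, filter, prior, threshold, arrays, lines and blocks.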

Additional observations from a re-analysis of the deposited data

How the results depend on the processing

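Of 151 recomputed counts of called member probe sets, 142 stayed within 1.5 times the count reported, and of 1433 recomputed member differences 1359 kept their direction and their side of the threshold. The class count of 5 became 3 without the dimmer 50% of probe sets, 1 at a minimum difference of 1.5 and 2 without line KC2. With the line as a random block it became 1, and Prss8 kept its call (adjusted p = 0.0168, limma). That fit cannot tell class from line either, since KC4 is the sole poorly metastatic line. Leaving out 1 array at a time gave class counts of 3 to 5. At a minimum difference of 1.5, KC1 minus KC4 gave 2 and KC3 minus KC4 gave 1. KC1 minus KC3 gave 3 with 1 probe set per gene and 3 without the dimmer 50%. Directions turned for Tmprss2 by class without KC2 (-0.13 on 1419154_at and -0.15 on 1449369_at) and for Hpn by class without KC1 (-0.66), with -0.21 to 0.63 when 1 array was left out. Hpn in KC2 minus KC4 ran from -0.82 to 0.034 and St14 in KC1 minus KC3 from -0.035 to 0.063 when 1 array was left out. Median centring turned Spint1 in KC3 minus KC4 to 0.040, St14 in KC1 minus KC3 to -0.20 and Spint2 in KC2 minus KC3 to -0.055, and it moved the median of all probe sets by 0.18, -0.21 and -0.24 in those comparisons. The causes were not tested. With the replicate block, the class count was 4, since Tmprss4 had an adjusted p of 0.0912, and the KC2 minus KC4 count was 7. The replicate numbers are only numbers here. Tmprss4, Tmprss13 and Hpn had arrays near or under the floor, and at a floor of 64 their class differences were 0.46, 1.16 and 0.40.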
